A study of Homo sapiens with 3 samples.

Results

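The aminoacyl-tRNA synthetase genes were examined in OCILy10 cells (OCI-Ly10), an established human line of activated B cell-like diffuse large B cell lymphoma grown with serum and L-glutamine, after 6 h with MZ1. MZ1 is a small molecule that brings BET bromodomain proteins to the VHL ubiquitin ligase for degradation. The members are 36 listed genes, 20 for cytosolic and 16 for mitochondrial enzymes, and all 36 were found among the 15808 genes of the deposited count table after Ensembl IDs were matched to GENCODE 29 symbols. RNA sequencing gave 3 replicate libraries that form 1 labelled group, all of the same line, agent and time. Untreated cells were not analysed here, so the values are levels in treated cells and no effect of MZ1 was estimated. Whether the libraries came from separate cultures is not stated, so p-values concern only differences between these libraries, which may be technical.

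Aminoacyl-tRNA synthetases join each amino acid to its tRNA and so set the genetic code during translation. They fall into class I and class II, which have unrelated catalytic folds. Human cells keep a cytosolic set and a mitochondrial set, both encoded in the nucleus, and the mitochondrial set charges the tRNAs that serve the respiratory chain proteins made inside the organelle. Several cytosolic enzymes are held together in a multisynthetase complex by the scaffold proteins AIMP1, AIMP2 and EEF1E1. EPRS encodes a fused enzyme for glutamate and proline, and GARS and KARS each encode both a cytosolic and a mitochondrial form. When amino acids run short, uncharged tRNA activates the kinase GCN2 (EIF2AK4), translation of the transcription factor ATF4 rises, and ATF4 binds a composite C/EBP-ATF response element in its target genes, which include cytosolic synthetase genes.

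That element was looked for in the promoters, taken from RefSeq on GRCh38.p14 as 250 bases before to 50 after the annotated gene start. A promoter was matched for 30 of the 36 genes, 16 cytosolic and 14 mitochondrial. The letters TGATGNAA, on either strand, were present in 6 of 16 cytosolic promoters and in 1 of 14 mitochondrial promoters, against 3.67% of all 27305 promoters of the same length. In the cytosolic genes the match was TGATGCAA on the gene's strand in NARS and its reverse complement TTGCATCA in the other 5. In 5 of the 6 it began within 14 bases of the RefSeq start, and in AARS it began 187 bases before it. GENCODE starts can differ from these, and that of MARS, at 57475445 on chromosome 12, lies kilobases from its RefSeq start. The windows below are shown because they hold every match among the members, each 60 bases, 5′ to 3′ on the strand of the gene, with the match in capitals.
NARS, chr18:57621807-57621866, minus strand: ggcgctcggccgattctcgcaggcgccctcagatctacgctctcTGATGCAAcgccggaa
MARS, chr12:57488038-57488097, plus strand: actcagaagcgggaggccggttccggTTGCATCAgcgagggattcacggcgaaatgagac
TARS, chr5:33440935-33440994, plus strand: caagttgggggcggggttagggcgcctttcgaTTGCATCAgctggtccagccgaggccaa
IARS, chr9:92293668-92293727, minus strand: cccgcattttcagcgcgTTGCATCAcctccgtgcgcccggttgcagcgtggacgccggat
AARS, chr16:70289660-70289719, minus strand: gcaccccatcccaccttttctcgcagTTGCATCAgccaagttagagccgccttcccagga
CARS, chr11:3057394-3057453, minus strand: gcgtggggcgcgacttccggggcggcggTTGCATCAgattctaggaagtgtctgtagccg
YARS2, chr12:32756061-32756120, minus strand: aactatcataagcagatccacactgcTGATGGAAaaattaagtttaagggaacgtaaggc

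The E-box CACGTG, a palindrome bound by MYC with MAX among other factors, was searched in the same promoters and was present in 1 of 16 cytosolic and 3 of 14 mitochondrial promoters, against 7.43% of all promoters. The cytosolic match, in IARS, began 186 bases before the start. The mitochondrial matches began 15, 11 and 3 bases before the RefSeq start in EARS2, MARS2 and CARS2, and they are shown with the E-box in capitals. For CARS2 the GENCODE start, at 110713603 on chromosome 13, lies kilobases from the RefSeq start.
EARS2, chr16:23557321-23557380, minus strand: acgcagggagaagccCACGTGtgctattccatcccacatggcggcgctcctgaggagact
MARS2, chr2:197705339-197705398, plus strand: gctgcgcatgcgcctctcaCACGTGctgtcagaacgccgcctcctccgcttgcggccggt
CARS2, chr13:110706486-110706545, minus strand: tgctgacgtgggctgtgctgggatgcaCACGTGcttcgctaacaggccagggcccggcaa

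HARS and HARS2, which encode the cytosolic and the mitochondrial histidyl enzyme, stand head to head on chromosome 5, with RefSeq starts 85 bases apart, so that their promoters share 184 bases. The stretch from the start of HARS to the start of HARS2 is shown because both genes are read outward from it, and neither the C/EBP-ATF letters nor the E-box were in either promoter.
HARS to HARS2, chr5:140691370-140691455, plus strand: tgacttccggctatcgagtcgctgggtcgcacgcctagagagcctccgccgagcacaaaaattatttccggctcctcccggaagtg

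The libraries held 5474462, 1441246 and 1314812 counts in replicates 1, 2 and 3. Levels are given as CPM, the count scaled to library size with TMM factors, and between genes as CPM per kb of merged exons. A single count is worth 0.200, 0.629 and 0.767 CPM in the 3 libraries, and intervals cover counting error only. All 8 listed B cell markers reached 1 CPM in every library, with MS4A1 at 848, 625 and 739 CPM, from 4243, 994 and 963 counts. Of 5 T cell markers, CD2 had 7, 0 and 0 counts and TRAC had 59, 7 and 8 counts, or 11.8, 4.40 and 6.14 CPM. CD3D, CD3E and CD3G were not in the count table. Of 4 myeloid markers, ITGAM had 22.8, 16.3 and 19.2 CPM and LYZ had 6.20, 6.29 and 3.84 CPM. CSF1R had 10, 3 and 1 counts, and CD14 was not in the count table. Of 3 epithelial markers, KRT8 had 45.8, 17.6 and 33.8 CPM, and EPCAM and KRT18 were not in the count table. The part of these markers in the members' values was not tested. Pearson's r of log2(CPM + 0.5) between libraries, a description across genes, was 0.683 to 0.781 over the cytosolic genes and 0.857 to 0.892 over the mitochondrial genes, against 0.827 to 0.899 over 13174 genes. Over all 36 members it was 0.932 to 0.949, a value that includes the gap between the sets. The lower r of the cytosolic genes did not go with a wider fold spread. The median ratio of highest to lowest library was 1.55 for cytosolic genes, 2.04 for mitochondrial genes and 2.03 for all expressed genes. Differences between the libraries also followed GC content, as set out with the members' own values further on.

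Cytosolic synthetase transcripts were far more abundant than mitochondrial ones. Per kb, the cytosolic median was 37.9, 26.3 and 40.8 CPM in replicates 1, 2 and 3, and the mitochondrial median was 4.30, 3.16 and 2.94 CPM. The difference of the medians on the log2(CPM per kb + 0.5) scale was 3.15 ± 0.39 (SD, n = 3), an 8.85-fold difference that ran from 7.23-fold to 12.0-fold over the libraries. Since the genes were chosen with earlier results of these data known, no p is given for this difference. The median of all 10699 expressed genes with a known length was 4.17, 3.59 and 3.99 CPM per kb. The cytosolic set lay above that median by 2.98 ± 0.26 on the log2 scale, and the mitochondrial set differed from it by -0.17 ± 0.21, less than its spread. Leaving out the members whose exons overlap a gene on the opposite strand gave a cytosolic minus mitochondrial difference of 2.71 ± 0.44.

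At least 1 CPM in all 3 libraries was reached by 35 of 36 members, 20 of 20 cytosolic and 15 of 16 mitochondrial, against 68.0% of all genes in the table. The exception was SARS2. Summed over the cytosolic genes, the share of each library was 0.381%, 0.336% and 0.342% (exact Clopper-Pearson 95% intervals 0.376 to 0.386%, 0.326 to 0.345% and 0.332 to 0.352%). The mitochondrial genes took 0.0467%, 0.0380% and 0.0452% (0.0449 to 0.0486%, 0.0348 to 0.0413% and 0.0416 to 0.0490% by the same method). The summed cytosolic counts were 8.15, 8.84 and 7.56 times the mitochondrial ones in the 3 libraries. The cytosolic share was thus higher in replicate 1 than in the other two, by intervals that do not overlap, and the mitochondrial share was lowest in replicate 2.

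**Figure D1:**
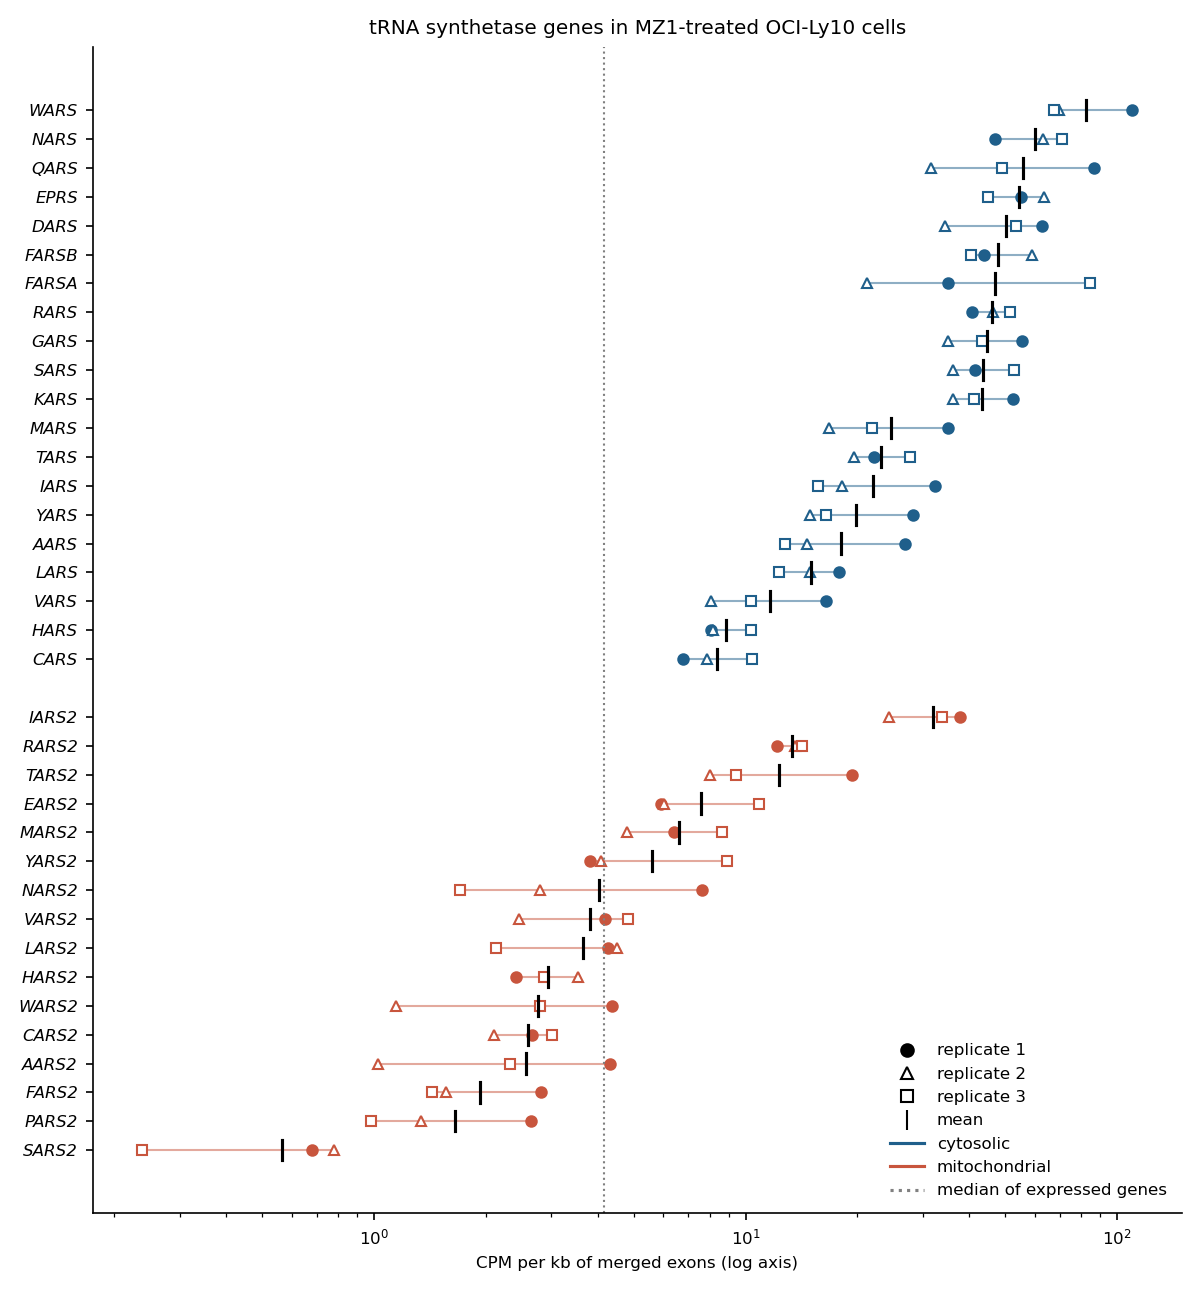
CPM per kb of merged exons (log axis) of the 20 cytosolic genes (blue, upper block) and the 16 mitochondrial genes (red, lower block) in each replicate (symbols), with the mean (black tick) and the median of expressed genes (dotted line, 4.15 CPM per kb). Every cytosolic mean lies right of the dotted line, and 6 of 16 mitochondrial means do.

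Ordered by mean level per kb, the 11 highest genes were all cytosolic and the 13 lowest all mitochondrial. Of 35 pairs of neighbours in this order, 2 had a gap larger than the larger of their SDs, KARS above IARS2 and PARS2 above SARS2. The order of the other neighbours is not resolved by that measure, though IARS2 over MARS, YARS over AARS and FARS2 over PARS2 held in 3 of 3 libraries. Genes further apart can differ more, as WARS at 110.0, 69.6 and 67.4 CPM per kb and KARS at 52.5, 36.2 and 41.1. Mean levels of 3 mitochondrial genes, IARS2, RARS2 and TARS2, lay above the lowest cytosolic mean, and 3 did so when the longest transcript replaced merged exons as the length.

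WARS, the tryptophanyl enzyme (ENSG00000140105.16, chromosome 14, 100333788 to 100376805, minus strand), had the highest mean. In replicates 1, 2 and 3 it reached 110.0, 69.6 and 67.4 CPM per kb, from 3498, 704 and 559 counts, which placed it in the top 3.90% of expressed genes. Replicate 1 stood above the others, which lay close together. Next came NARS, the asparaginyl enzyme, at 46.8, 63.2 and 70.9 CPM per kb, lowest in replicate 1. QARS, the glutaminyl enzyme, had 86.5, 31.5 and 49.0 CPM per kb and was highest in replicate 1. EPRS was steadier at 55.0, 63.4 and 45.0 CPM per kb. These values show that the leading cytosolic genes did not rise and fall together across the libraries.

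DARS, the aspartyl enzyme of the complex, averaged 50.3 ± 14.5 CPM per kb (SD, n = 3, as for the means that follow). RARS, for arginine, averaged 46.1 ± 5.37 and KARS, for lysine, 43.3 ± 8.36. Outside the complex, GARS, for glycine, averaged 44.6 ± 10.2 and SARS, for serine, 43.5 ± 8.47. Neighbours among these 5 genes differed by less than the larger of their SDs. A lower stretch held MARS at 24.6 ± 9.52, TARS at 23.2 ± 4.19, IARS at 22.0 ± 8.95, YARS at 19.9 ± 7.30, AARS at 18.1 ± 7.61 and LARS at 15.0 ± 2.80 CPM per kb, for methionine, threonine, isoleucine, tyrosine, alanine and leucine. VARS, the valyl enzyme, averaged 11.6 ± 4.33.

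The lowest cytosolic genes were HARS at 8.05, 8.16 and 10.4 CPM per kb and CARS, the cysteinyl enzyme, at 6.79, 7.89 and 10.4 CPM per kb. Both have long merged exons, 7.85 and 10.0 kb, and per kb of the longest transcript their means were 19.9 and 14.6 CPM. They stayed within the lower part of the cytosolic range on either length.

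Among mitochondrial genes, IARS2, for isoleucine (ENSG00000067704.9, chromosome 1, 220094102 to 220148041, plus strand), stood apart at 37.7, 24.3 and 33.7 CPM per kb, in the top 9.80% of expressed genes. RARS2, for arginine, followed at 12.2, 13.6 and 14.2 CPM per kb and was the steadiest member, with a highest to lowest ratio of 1.16. TARS2, for threonine, had 19.4, 8.02 and 9.41 CPM per kb, high in replicate 1. The other 13 mitochondrial means lay at 7.60 CPM per kb or lower.

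EARS2, for glutamate, averaged 7.60 ± 2.81, MARS2, for methionine, 6.62 ± 1.93, and YARS2, for tyrosine, 5.60 ± 2.87 CPM per kb. NARS2, for asparagine, had 7.61, 2.79 and 1.70 CPM per kb from 120, 14 and 7 counts, the widest spread of any member at 4.47-fold. VARS2 averaged 3.82 ± 1.22, LARS2 3.64 ± 1.31, HARS2 2.94 ± 0.565, WARS2 2.77 ± 1.61, CARS2 2.59 ± 0.456, AARS2 2.56 ± 1.66 and FARS2 1.93 ± 0.764 CPM per kb. CARS2 has 10.5 kb of merged exons, and per kb of the longest transcript its mean was 7.70 CPM.

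At the bottom were PARS2, the prolyl enzyme, with 31, 5 and 3 counts, and SARS2, the seryl enzyme (ENSG00000104835.13, chromosome 19, 38915266 to 38930896, minus strand), with 11, 4 and 1 counts. SARS2 reached 0.681, 0.778 and 0.237 CPM per kb, below 94.5% of expressed genes. Its exons share 349 bases with MRPS12, a mitochondrial ribosomal protein gene read in the opposite direction, which had 11.4, 1.89 and 10.7 CPM. Whether reads of MRPS12 enter the SARS2 count was not tested.

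Pairing the enzymes for the same amino acid gave 17 cytosolic and mitochondrial pairs, with EPRS set against both EARS2 and PARS2 and both FARSA and FARSB against FARS2. The cytosolic gene was higher per kb in 3 of 3 libraries in 16 of 17 pairs, and the median pair differed 3.86-fold. With 3 libraries the exact two-sided sign-flip permutation test cannot go below p = 0.25, which is 0.265 after Benjamini-Hochberg adjustment over 18 ratios, so no pair could pass 0.05. The mean log2 ratio was larger than its SD in 17 of 17 pairs.

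**Figure D2:**
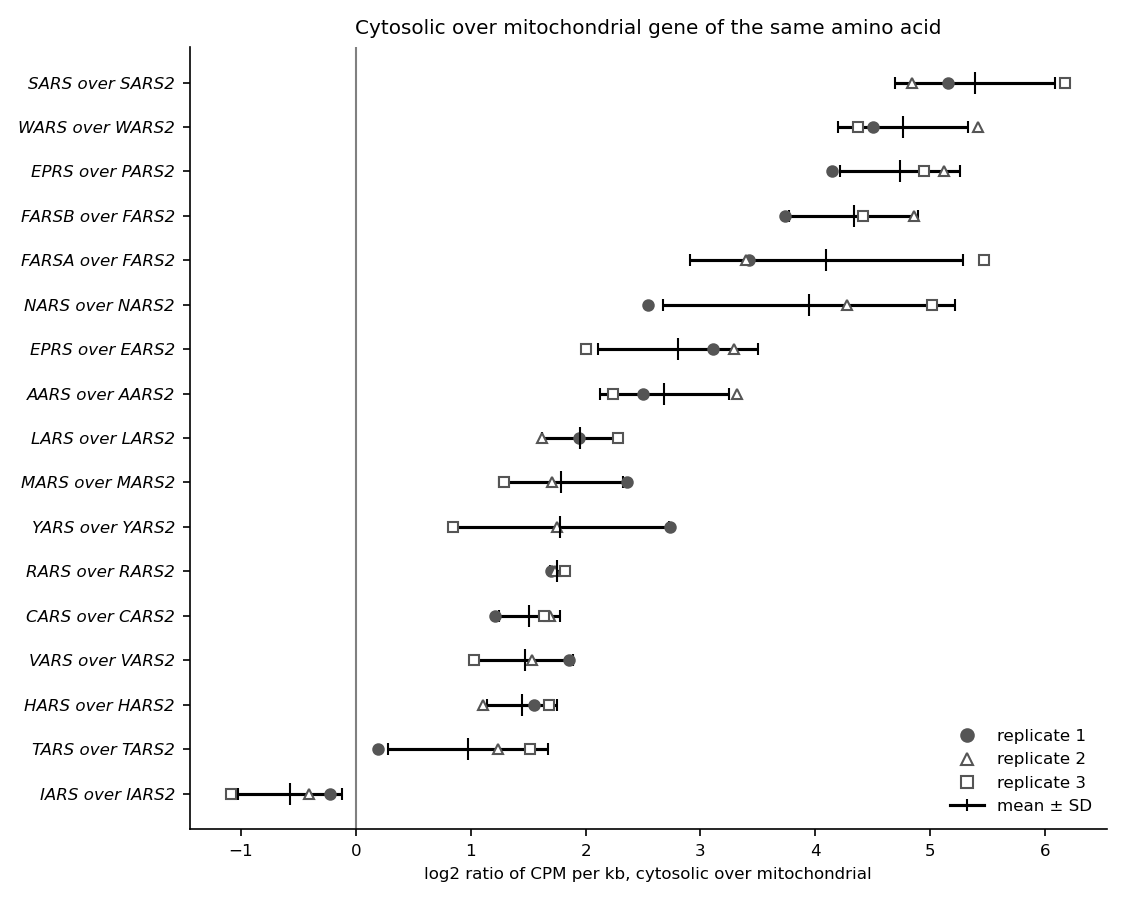
Log2 ratio of CPM per kb, cytosolic over mitochondrial gene, for the 17 amino acid pairs in each replicate (symbols), with mean and SD (black). All points lie right of 0 except those of IARS over IARS2, which lie left of it in all 3 replicates.

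The widest pair was SARS over SARS2, with log2 ratios of 5.15, 4.84 and 6.18 and a mean of 5.39 ± 0.70, resting on the few SARS2 counts. WARS over WARS2 followed at 4.76 ± 0.57 and EPRS over PARS2 at 4.73 ± 0.52. The phenylalanyl subunits lay 4.34 ± 0.56 (FARSB) and 4.10 ± 1.19 (FARSA) above FARS2. NARS over NARS2 was 3.95 ± 1.27, from 2.54, 4.27 and 5.02 in replicates 1, 2 and 3. By mean level per kb the mitochondrial partners ranked 36 (SARS2), 35 (PARS2), 34 (FARS2), 31 (WARS2) and 27 (NARS2) among the 36 members.

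The middle of the order held EPRS over EARS2 at 2.80 ± 0.70, AARS over AARS2 at 2.68 ± 0.56 and LARS over LARS2 at 1.95 ± 0.33. MARS over MARS2 was 1.79 ± 0.54 and YARS over YARS2 1.78 ± 0.95. The arginyl pair kept nearly the same ratio in every library, 1.70, 1.73 and 1.82, with a mean of 1.75 ± 0.06. That SD was the lowest of the 17 pairs, and NARS over NARS2 had the highest, 1.27. CARS over CARS2 was 1.51 ± 0.26, VARS over VARS2 1.47 ± 0.42 and HARS over HARS2 1.45 ± 0.31.

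Threonine and isoleucine closed the order. TARS over TARS2 was 0.98 ± 0.70 and only 0.19 in replicate 1, where TARS2 was high. IARS lay below IARS2 in 3 of 3 libraries, at 32.3, 18.2 and 15.7 CPM per kb against 37.7, 24.3 and 33.7 for IARS2, a log2 ratio of -0.57 ± 0.45. This ratio depends on length: per kb of the longest transcript it was -0.14 ± 0.46, within its spread, and as CPM without length correction IARS was higher by 0.25 ± 0.46. What does not depend on it is that IARS2, at 157, 101 and 140 CPM, reached the range of cytosolic genes.

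**Figure D3:**
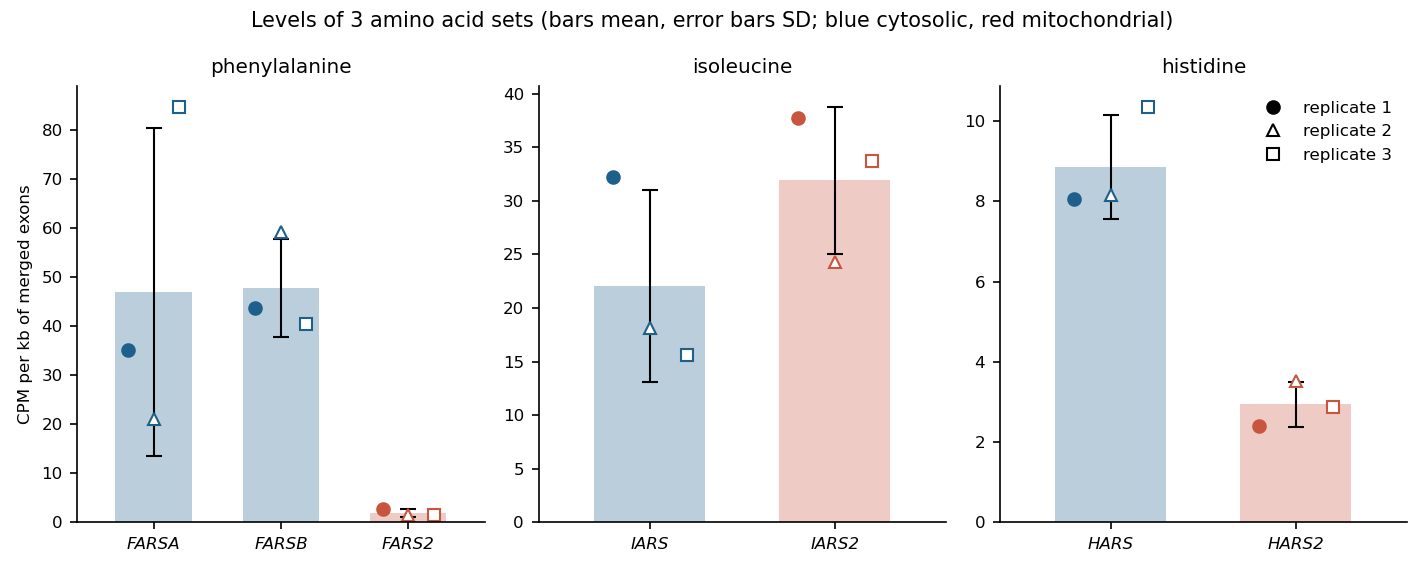
CPM per kb of merged exons for the phenylalanine, isoleucine and histidine enzymes, with bars at the mean, error bars of 1 SD (n = 3) and a symbol per replicate. FARSA spans 21.2 to 84.7 CPM per kb while FARSB spans 40.5 to 59.1, IARS2 lies above IARS in each replicate, and HARS lies above HARS2.

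Cytosolic phenylalanyl-tRNA synthetase is built from the FARSA and FARSB subunits in equal number, so their transcripts can be set side by side as parts of 1 enzyme. Their mean levels were close, at 47.0 ± 33.4 CPM per kb for FARSA and 47.8 ± 9.95 for FARSB. Library by library they were not: FARSA had 35.1, 21.2 and 84.7 CPM per kb, from 427, 82 and 269 counts, and FARSB had 43.7, 59.1 and 40.5, from 737, 317 and 178 counts. FARSA was above FARSB in replicate 3 alone. The log2 ratio of FARSA over FARSB was -0.24 ± 1.26 (exact two-sided sign-flip permutation p = 0.75), and without replicate 2 it was 0.37, so its sign is not resolved. FARSA transcripts are GC-rich at 60.3% and FARSB transcripts are not, at 41.6%, and the part of base composition in this spread was not tested. FARSA exons overlap 25 bases of FARSA-AS1, which had 1.20, 0 and 2.30 CPM.

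HARS and HARS2, read from the shared stretch printed above, had 63.2, 64.1 and 81.3 CPM for HARS and 9.00, 13.2 and 10.7 CPM for HARS2. The HARS2 level rests on 45, 21 and 14 counts. In GENCODE their exons overlap over 437 bases, 11.7% of the HARS2 exons, and whether HARS reads enter the HARS2 count was not tested. Neither gene varied between libraries by the test described next (adjusted p = 0.0986 for HARS and 0.392 for HARS2).

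Differences between libraries were tested wherever the 3 counts averaged 10 or more, by a chi-square statistic for a single shared level under counting (Poisson) error alone. Benjamini-Hochberg adjustment was over 10016 genes. The statistic has no term for ordinary spread between replicates, so a small p shows only a difference beyond counting error. The test compares libraries, not conditions. At an adjusted 0.05, 28 of 35 tested members varied, 19 of 20 cytosolic and 9 of 15 mitochondrial, against 67.2% of all genes tested. Power rises with the count, and of the 23 members with a mean count of at least 100, 22 varied, against 86.0% of all such genes. Without replicate 1 the count was 13 of 34 members, against 33.8% of all genes. Of the 19 members whose exons overlap no gene on the opposite strand, 15 varied, to be read against the same 67.2% of all genes.

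Varying genes that were highest in replicate 1 made up 16 of 35 members, 11 of 20 cytosolic and 5 of 15 mitochondrial, against 32.1% of all genes. Varying genes lowest in replicate 2 made up 15 of 35 members, against 28.4% of all genes. QARS had the smallest adjusted p of the members (1.08e-62), at 407, 148 and 231 CPM. WARS (adjusted p = 3.47e-45) and FARSA (1.58e-42) came next, WARS high in replicate 1 and FARSA high in replicate 3. WARS had an adjusted p of 0.714 without replicate 1. Its exons overlap AL157871.4, which had 0, 6.91 and 9.21 CPM, and WDR25.

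Of the 8 genes of the multisynthetase complex, 6 were highest in replicate 1, QARS, DARS, KARS, MARS, IARS and LARS, against 11 of 20 cytosolic genes and 43.1% of all genes of at least 10 CPM. All 8 varied, as did 19 of 20 cytosolic genes, against 86.0% of all genes whose mean count reached 100. IARS had 239, 134 and 116 CPM (adjusted p = 1.54e-25), MARS had 247, 118 and 153 CPM (1.40e-25) and LARS had 145, 121 and 99.7 CPM (0.000282). EPRS was highest in replicate 2 and RARS, at 139, 158 and 176 CPM, in replicate 3. Over the 8 genes the median log2 difference from replicate 1 was -0.68 in replicate 2 and -0.44 in replicate 3. Over the other 12 cytosolic genes it was -0.43 and 0.11, and over the mitochondrial genes -0.52 and -0.39. It was -0.58 and -0.32 over all members, which include the 8, and -0.11 and -0.06 over all expressed genes. MARS exons overlap ARHGAP9, at 20.4, 1.26 and 3.07 CPM, and DDIT3.

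Per kb, the genes of the complex lay at a median of 46.5, 33.0 and 43.1 CPM and the other 12 cytosolic genes at 31.7, 20.4 and 34.2 CPM, a log2 difference of 0.53 ± 0.16. The scaffold genes covered a wider range. AIMP1 had 29.5, 51.2 and 50.2 CPM per kb, AIMP2 had 19.3, 9.57 and 12.1, and EEF1E1 had 6.26, 2.68 and 2.91 CPM per kb. AIMP1 was lowest in replicate 1, where AIMP2 and EEF1E1 were highest. All 3 varied between libraries (chi-square test, adjusted p of 0.0156 or lower), against 67.2% of all genes tested.

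By catalytic class the sets went opposite ways per kb. Cytosolic class I genes had a lower median than cytosolic class II genes, with a log2 difference of -0.82 ± 0.42. Mitochondrial class I genes lay above mitochondrial class II genes by 1.30 ± 0.75. The cytosolic order depends on length, with median merged exons of 6.69 kb for class I and 4.08 kb for class II. Without length correction the cytosolic medians were 235, 129 and 144 CPM for class I and 153, 139 and 173 CPM for class II. Class I was then higher in replicate 1. The mitochondrial medians were 29.2, 22.0 and 31.5 CPM for class I and 13.6, 7.54 and 6.90 CPM for class II. Class II mitochondrial genes were the lowest of the 4 sets, with medians of 2.81, 1.56 and 1.70 CPM per kb. EPRS, which joins a class I and a class II enzyme, was counted in class I.

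The 6 cytosolic genes with the C/EBP-ATF letters had medians of 29.5, 17.4 and 18.7 CPM per kb, and the 10 without them 48.1, 36.2 and 47.0 CPM per kb. The 6 spread from CARS at a mean of 8.36 to NARS at 60.3 CPM per kb. They did not share a direction between libraries: AARS, IARS and MARS were highest in replicate 1 and NARS, TARS and CARS in replicate 3. The 10 without the letters were likewise split, 4 highest in replicate 1, 2 in replicate 2 and 4 in replicate 3.

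GC content moved with the differences between libraries. Across the 36 members, Spearman's rho of GC content with the log2 difference was -0.37 between replicates 2 and 1 (2 minus 1), -0.23 for 3 minus 1, and 0.20 for 3 minus 2. Within the cytosolic genes it was -0.56, -0.23 and 0.39, and within the mitochondrial genes -0.07, -0.27 and -0.06, in the same order. Across the 7494 genes of at least 10 CPM it was -0.43, -0.14 and 0.47. Members share libraries and depth, so these are descriptions without a test. The 7 members with a GC content of 55% or more had a median log2 difference of -0.92 for replicate 2 minus 1, against -1.13 for all such genes. In the 12 members under 45% GC it was -0.22, against 0.23 for all such genes. The median GC content was 47.7% for cytosolic genes (41.2 to 62.6%) and 51.2% for mitochondrial genes (41.9 to 61.2%). The part of GC content in the differences named above was not tested.

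**Figure D4:**
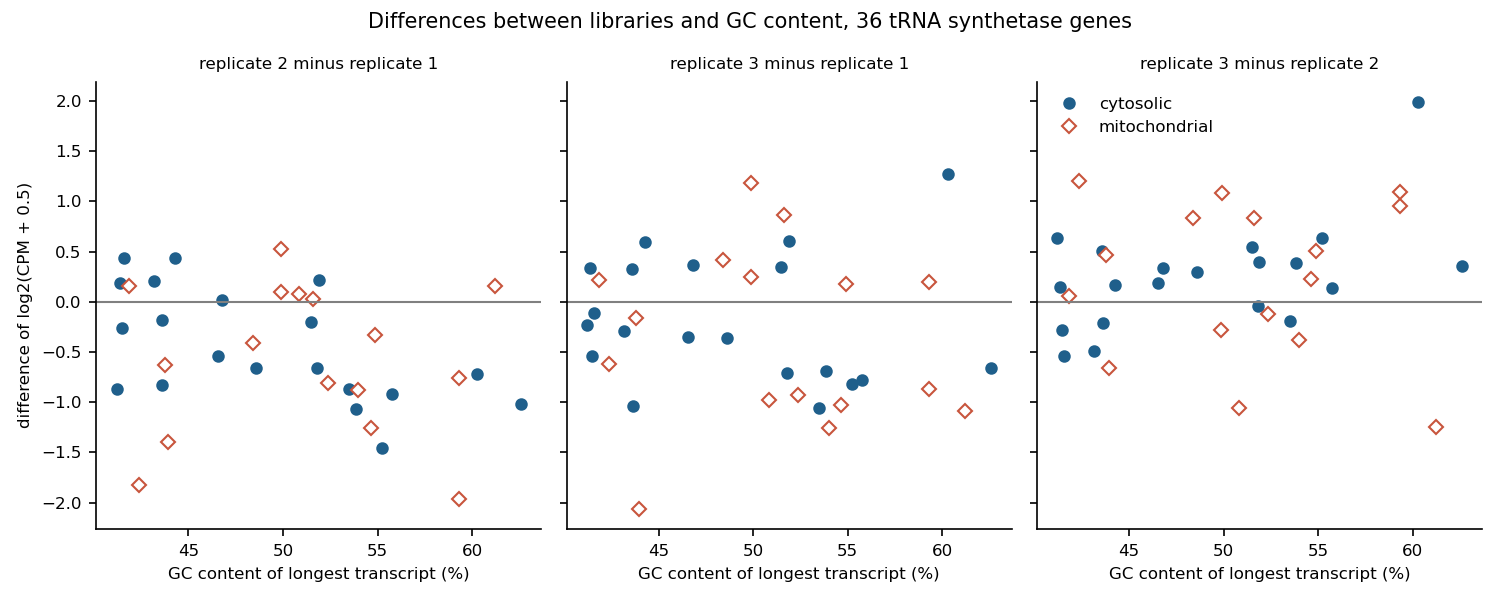
Difference of log2(CPM + 0.5) between pairs of libraries against the GC content of the longest transcript, for 20 cytosolic (filled circles) and 16 mitochondrial genes (open diamonds). Members above 55% GC lie mostly below 0 in replicate 2 minus replicate 1, and the cytosolic point near 60% GC that is highest in replicate 3 minus 2 is FARSA.

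Other genes of mitochondrial charging were measured from a list of 9, of which 9 reached 1 CPM in every library and 5 of 9 varied, against 67.2% of all genes tested. Mitochondria lack their own glutaminyl enzyme and make glutaminyl-tRNA with an amidotransferase, whose subunit genes QRSL1, GATB and GATC averaged 1.27 ± 0.00945, 1.26 ± 0.738 and 4.15 ± 1.07 CPM per kb. MTFMT, which formylates the initiator methionyl-tRNA, averaged 2.64 ± 0.860. These lie in the range of the mitochondrial synthetases. The 3 highest of the list were elongation and initiation factors of the organelle, with TUFM at 218, 108 and 154 CPM per kb, MTIF2 at 20.1, 44.3 and 48.4, and TSFM at 11.5, 14.2 and 19.6, while the elongation factor gene GFM1 averaged 3.77 ± 0.228 CPM per kb.

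Of the other synthetase and editing genes, 9 of 9 reached 1 CPM in every library and 4 of 8 tested varied, against the same 67.2%. PTRHD1 averaged 8.45 ± 5.98, DTD1, a D-aminoacyl-tRNA deacylase gene, 8.21 ± 3.40, and PSTK, a kinase of selenocysteine tRNA charging, was the lowest at 0.536 ± 0.173 CPM per kb.

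Among genes that make tRNA itself, those listed for transcription had medians of 3.89, 4.81 and 5.14 CPM per kb in replicates 1, 2 and 3. Those listed for maturation and export had medians of 5.73, 5.00 and 8.38, against 4.17, 3.59 and 3.99 for all expressed genes. Of the 12 listed genes of RNA polymerase III transcription, 12 reached 1 CPM in every library and 8 of 12 varied, near the 67.2% of all genes. GTF3C2, a TFIIIC subunit gene, averaged 14.2 ± 3.86 CPM per kb, MAF1, a repressor of the polymerase, 13.0 ± 5.66, GTF3C5 10.6 ± 5.79 and BRF1, a TFIIIB subunit gene, 0.439 ± 0.229. Of the 13 genes of tRNA maturation and export, 13 reached 1 CPM and 7 of 12 tested varied, against 67.2%. RTCB, the tRNA ligase, averaged 41.8 ± 9.64, ELAC2, which cuts the 3′ trailer, 13.5 ± 5.15, XPOT, the tRNA exporter, 13.0 ± 2.93 and TSEN54, a splicing endonuclease subunit, 0.906 ± 0.365 CPM per kb. Downstream, the elongation factor gene EEF1A1, which carries charged tRNA to the ribosome, had 2527, 559.6 and 923 CPM per kb, highest in replicate 1, and 3 of 3 genes of that list in the table varied, against 86.0% of genes whose mean count reached 100. EEF1B2 averaged 655 ± 146 and EEF1D 33.9 ± 13.3 CPM per kb.

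In the amino acid stress response, 17 of 22 listed genes reached 1 CPM in every library and 14 of 17 tested varied, against 67.2% of all genes tested. ATF4 had 180, 118 and 186 CPM per kb, the translation phosphatase subunit gene PPP1R15A 72.7, 144 and 145, and EIF2S1, the factor phosphorylated by GCN2, 51.3, 74.6 and 99.0 CPM per kb. ASNS, asparagine synthetase and a classic ATF4 target, had 126, 49.0 and 36.1 CPM and was highest in replicate 1, as were PSAT1 at 68.6, 25.8 and 10.7 CPM and PHGDH at 69.2, 21.4 and 19.9 CPM, both of serine synthesis. CHAC1 had 1, 4 and 1 counts, TRIB3 had 21, 2 and 4, and VLDLR, the lowest of the list, had 5, 0 and 1. DDIT3 had 34, 11 and 13 counts, and 355 bases of its exons lie opposite MARS. ASNS, PSAT1, PHGDH, CHAC1, TRIB3 and DDIT3 here, and QRSL1, GATC, MTFMT and GFM1 above, were singled out after their values were seen.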

How the data were processed

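The authors deposited raw read counts per gene for 3 libraries, and log2 CPM values for the same genes. Tools named in the submitters' processing notes are STAR and edgeR, with hg38 as the build. No source used here gives the strand setting of the counting, so reads of a gene and of an opposite-strand partner cannot be told apart; 17 of the 36 members have such a partner. Trizol-extracted RNA went into Illumina TruSeq libraries, per the labels' protocols.

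Counts were scaled with TMM (edgeR 4.0.16, R 4.3.3; factors 0.914, 1.10 and 0.991 for replicates 1, 2 and 3) and divided by merged exon length from GENCODE 29. Of 15808 IDs, 15668 matched; the others held 0.0315% to 0.0972% of the counts and stayed in the totals. The deposited log2 values carry an offset of 0.452 CPM, found by a fit to the counts, and served as an alternative. The pseudocount was 0.5. The chi-square test (scipy 1.17.1) was checked on counts simulated with counting error alone. That check cannot show how the test behaves with further spread between replicates. Genes named are all members and, of each other list, the 3 highest and the lowest per kb, with exceptions stated and 1 gene of those lists not reported here. Members and lists were chosen with earlier results of these data known. Alternatives included DESeq2 1.42.0 size factors, column totals, other lengths, pseudocounts and filters, and leaving out each replicate. Promoters came from RefSeq (GRCh38.p14), and coordinates of genes from GENCODE 29 (GRCh38). GENCODE names pseudogenes of 11 members, none of them in the table, and shared reads there are uncertain.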

Additional observations from a re-analysis of the deposited data

How the results depend on the processing

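The cytosolic minus mitochondrial difference of 3.15 on the log2 scale stayed positive under all 14 alternatives. It moved by more than its SD with means in place of medians (2.69) and without members that overlap an opposite-strand gene (2.71), and leaving out a replicate gave 2.92 to 3.29. The 16 pairs with the cytosolic gene higher stayed 16 under all 8 alternatives. The log2 ratio of IARS over IARS2 changed sign without length correction (0.25), and that of FARSA over FARSB without replicate 2 (0.37), with a range of -0.89 to 0.37 when a replicate was left out. The 28 varying members became 13, 23 and 21 without replicates 1, 2 and 3, against 33.8%, 45.2% and 56.2% of all genes tested. They became 15 among the 19 without an opposite-strand partner, an alternative chosen after seeing the data, where fewer genes were counted. DESeq2 size factors, column totals and a mean count of at least 1 each gave 28, against 67.0%, 67.6% and 53.4% of all genes tested. A mean count of at least 50 gave 24 of 28 members tested, against 81.1% of all genes. With column totals HARS passed the threshold and VARS2 did not. No paired analysis was possible because there is 1 group. Replicates 2 and 3 are shallow, and SARS2, PARS2, NARS2, WARS2 and AARS2 had 7 or fewer counts in at least 1 of them.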
